A study of Mus musculus with 2 samples.

Results

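Aire and 8 of the nuclear proteins it works with were followed in medullary thymic epithelial cells in which Clp1, a factor of pre-mRNA 3' end processing, was knocked down. The set held Aire itself, the elongation kinase Cdk9, the topoisomerases Top1 and Top2b, Prkdc (the catalytic subunit of DNA-dependent protein kinase), the chromatin remodeler Chd4, the kinase Hipk2, the deacetylase Sirt1 and the hydroxylase Jmjd6. These 9 of 23003 genes were taken by name. Each gene was represented by its most-read RefSeq transcript, and all 9 had at least 50 reads.

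mTEChi are mature epithelial cells of the thymic medulla, marked by a high level of MHC class II. Both libraries came from 1 lentigenic B6 mouse, made with a lentivector that held 2 constructs, and the labels name no further animals. In the first, a doxycycline-inducible TRE3G promoter drove 3 different small hairpin RNAs against Clp1 together with the green reporter ZsGreen. In the second, the EF1 promoter drove the TetOn3G transactivator. The mouse received doxycycline in the food at 2 g/kg for 2 weeks from 3 weeks of age, so both groups of cells were exposed to it. CD45- cells with high I-A/E and low or intermediate Ly51 were sorted. The GFP+ cells were the Clp1 knockdown sample and the GFP- cells of that mouse the control (Ctr). With 1 library per group there was no replicate check and no p-value was computed. All intervals are 95% intervals and cover counting error only, as reads amplified by PCR and lacking molecular identifiers do not stand for separate molecules.

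Aire is a transcriptional regulator that makes mTEChi express a wide range of genes that are otherwise restricted to peripheral tissues, and thymocytes that react to these self-antigens are deleted or diverted. It has no strong sequence-specific DNA binding of its own. It is known to act at promoters where RNA polymerase II is already engaged, through DNA breaks made by topoisomerases, the DNA-dependent protein kinase and the release of paused polymerase by P-TEFb, the complex of Cdk9 and a cyclin T.

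The libraries held 37524730 (knockdown) and 28464803 (Ctr) reads counted over RefSeq transcripts, in which a read can be counted for several isoforms. Values were scaled by size factors of 1.14 (knockdown) and 0.877 (Ctr), and log2 ratios are knockdown over Ctr. Clp1 had 812 reads in the knockdown and 1573 in the Ctr library, a log2 ratio of -1.33 (-1.46 to -1.21). The markers of mature mTEC, led by Cd74 and H2-Ab1, summed to 110% of the Ctr level in the knockdown library. That sum rests mostly on Cd74 and H2-Ab1, and single genes of the list had log2 ratios from -1.01 to 1.26, around a median of 0.27. The summed scaled level of 10 thymic epithelial genes (led by Krt8 and Krt18) in the knockdown library was 149% of that in Ctr, with a median log2 ratio of 0.59. Single genes of this list differed, from -0.06 (Foxn1) to 1.34 (Epcam). Krt8 stood at 0.26 and Krt18 at 0.25, and 4 genes were at least 2-fold higher. The sums of markers of cells that the sort should leave out stood at 3.28% of the Ctr level for red cells (6 genes, led by Hba-a1 and Hba-a2), 10.3% for endothelium (9, Pecam1 and Esam), 29.6% for thymocytes (12, Lck and Cd8b1), 31.0% for B cells (6, Cd79b and Cd79a) and 38.8% for fibroblasts and mural cells (8, Dcn and Acta2). Cd79b (-0.54) gave 598 of the 684 B cell reads in the knockdown library, and the B cell list had a median log2 ratio of -4.50. Dcn (-0.97) and Acta2 (0.06) gave most fibroblast and mural cell reads in that library, and their list had a median of -2.26. The sum for dendritic cells and macrophages (9, Lyz2 and Flt3) stood at 126%, but Lyz2 gave 15840 of its 17617 reads in the knockdown library, and the list had a median log2 ratio of -1.05, with 5 genes at least 2-fold lower and 1 higher. The sum for cTEC, the cortical epithelium (7, Ctsl and Ccl25), stood at 71.9% and was carried by Ctsl (0.14) and Ccl25 (0.08), whereas the list had a median of -1.47, with the other 5 genes at least 2-fold lower. Of all genes with at least 50 reads, 18.6% were at least 2-fold lower and 19.0% at least 2-fold higher. No gene of these lists was at 0 in either library. Except for Aire, the genes of this set are active in most cell types, and the part of the other cells in their values was not tested. Fewer cells of a type and less RNA per cell cannot be told apart in such libraries.

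Aire was the most abundant transcript of the set in both libraries. Aire (chr10:77492767-77506355 on mm9, minus strand) had 8264 reads in the knockdown and 7462 in the Ctr library, or 3757 and 4411 scaled reads per kb of transcript. Among genes with at least 50 reads its level per kb stood at percentile 96.9 in the knockdown library and at percentile 97.3 in Ctr. The knockdown level was 85.2% of the Ctr level, a log2 ratio of -0.23 (-0.28 to -0.19). This lay between the quartiles of the 16455 genes with at least 50 reads, which ran from -0.70 to 0.71, and 40.2% of those genes had a lower ratio. The Aire ratio depended on the scaling, as it became 0.18 when the trend of the ratio with GC content was subtracted and -0.82 when scaled to the thymic epithelial genes.

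The 13 RefSeq transcripts of Aire share most of their reads, so their similar ratios do not stand as separate measurements. The 4 coding transcripts with the most reads had 8261 (knockdown) and 7462 (Ctr) reads each. A second group of 4 had 7438 and 6744 reads, and the last 4 had 7161 and 6491, because their exons leave out sequence that was read in both libraries. Log2 ratios of the 3 groups were -0.23, -0.24 and -0.24. The reads that the last group lacked, 1100 in the knockdown and 971 in the Ctr library, had a log2 ratio of -0.20 (-0.32 to -0.07). Its interval overlaps that of the whole gene, which includes these reads. Along the transcript NM_009646, the exons before the last had 6123 and 5698 reads (-0.27, -0.33 to -0.22) and the last exon 1537 and 1185 (-0.00, -0.11 to 0.11). Thus the last exon of Aire was read at nearly equal density in the knockdown and the Ctr library, at 4585 and 4596 scaled reads per kb. The log2 ratio of the last exon minus that of the earlier exons was 0.27 (0.15 to 0.39). This lay between the quartiles of 11004 genes, which ran from -0.20 to 0.38. Of the 3825 annotated exonic bases of the gene, 67 overlap exons of Dnmt3l on the opposite strand.

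Sirt1, a NAD-dependent deacetylase that removes acetyl groups from Aire, followed Aire in level and was higher in the knockdown library. It had 9644 reads in the knockdown and 3975 in the Ctr library, with 2165 and 1160 scaled reads per kb. The log2 ratio was 0.90 (0.85 to 0.95), a 1.87-fold difference that did not reach 2-fold, and 20.9% of all genes had a higher one. Scaled to the thymic epithelial genes, the ratio of Sirt1 was 0.31. Its upstream last exon, with 4970 and 1864 reads, had a ratio of 1.04 (0.96 to 1.11), and its earlier exons, with 4396 and 1977 reads, one of 0.77 (0.70 to 0.85). The difference between these parts was 0.26, and 68.3% of genes had a lower one. Both coding transcripts of Sirt1 (chr10:62781753-62844452, minus strand) gave similar values, as they share most of their reads. The shorter NM_001159589 had a log2 ratio of 0.92 (0.87 to 0.98). An exon of Gm16145 on the opposite strand overlaps 65 of the 5331 exonic bases of Sirt1.

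**Figure D1:**
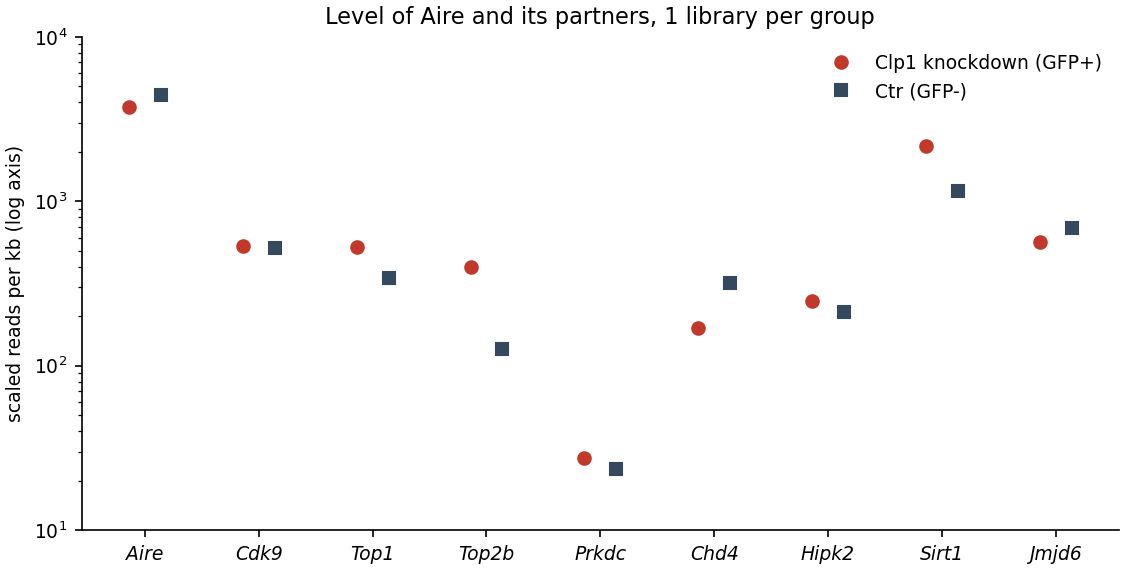
Scaled reads per kb of transcript (log axis) of each gene in the Clp1 knockdown (circle) and Ctr (square) library, 1 library per group. Aire is highest at 3757 (knockdown) and 4411 (Ctr), and Prkdc lowest at 27.5 and 23.5.

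The other members were expressed well below Aire and Sirt1. Jmjd6, Cdk9 and Top1 came next in both libraries, with 567, 536 and 523 scaled reads per kb in the knockdown library and 692, 521 and 340 in Ctr. In the knockdown library the counting intervals of Jmjd6 and Cdk9 overlapped, as did those of Cdk9 and Top1. In Ctr only those of Top1 and Chd4 did among neighbours. Top2b held different places, with 396 in the knockdown library, above Hipk2 (249) and Chd4 (168), against 127 in Ctr, below Chd4 (320) and Hipk2 (213). Prkdc was lowest in both, at 27.5 and 23.5. Only reads that lie wholly within 1 exon were counted, so genes of many short exons such as Prkdc have lower values per kb than their RNA would give.

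Top2b was the member with the largest difference. It encodes DNA topoisomerase II beta, which passes one double strand through another and is the type II enzyme of non-dividing cells. Top2b (chr14:17197693-17263301, plus strand) had 2542 reads in the knockdown and 626 in the Ctr library. The knockdown level was 3.12-fold that of Ctr, a log2 ratio of 1.64 (1.52 to 1.77), and 10.9% of all genes had a higher ratio. Top2b was the only member at least 2-fold higher, 1 of 9, where 19.0% of all genes were. No member was at least 2-fold lower, where 18.6% of all genes were. The share of members past 2-fold was thus not above that of genes at large, which were not matched to the members for read depth. Among genes with at least 1000 reads the quartiles were narrower, from -0.46 to 0.52. Top2b stayed past 2-fold in each of the 7 alternatives that were run, between 1.06 and 2.17. Not all of these could move it, as the longest transcript was the reported one and total-read and TMM scaling hardly shift any gene. The largest moves came with the thymic epithelial scaling (1.06), the GC subtraction (1.15) and the earlier exons alone (2.17).

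The excess of Top2b reads in the knockdown library was not even along the transcript. The earlier exons had 1790 reads in the knockdown and 306 in the Ctr library (2.17, 1.99 to 2.35), the 5'UTR 288 and 129 (0.78, 0.48 to 1.09) and the last exon 427 and 151 (1.12, 0.85 to 1.40). All 3 parts were higher in the knockdown library, most of all the middle of the transcript. The density of reads over the earlier exons was 43.9% of that over the last exon in the knockdown library and 21.2% in Ctr. The log2 ratio of the last exon minus that of the earlier exons was -1.05 (-1.38 to -0.72), and 5.91% of 11004 genes had a lower value. A difference of at least 2-fold in either direction was found in 16.2% of those genes and in 2 of the 9 members, Top2b and Prkdc. In both, the ratio of the last exon was below that of the earlier exons, as it was by at least 2-fold in 6.22% of all genes.

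Prkdc encodes the kinase that the Ku proteins bring to DNA double-strand breaks, and it was the least covered gene of the set. Prkdc (chr16:15637959-15842332, plus strand) had 398 reads in the knockdown and 261 in the Ctr library, a log2 ratio of 0.23 (0.00 to 0.46). The ratio became -0.11 without the GC trend and -0.36 when scaled to the thymic epithelial genes. Its parts differed in opposite directions. The earlier exons, 12182 bp, had 375 and 207 reads (0.48, 0.23 to 0.73), whereas the last exon had 22 and 52 reads (-1.62, -2.41 to -0.87). The log2 ratio of the last exon minus that of the earlier exons was -2.10 (-2.93 to -1.30), and 2.18% of genes had a lower value. The single ratio of Prkdc averages these parts and rests on few reads.

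**Figure D2:**
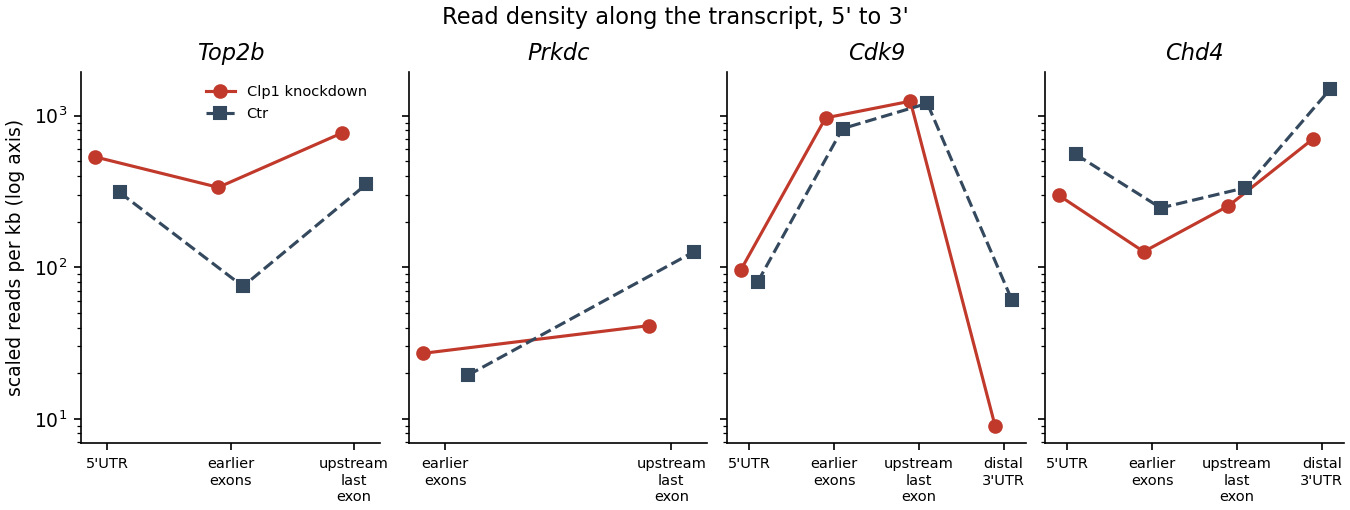
Scaled reads per kb (log axis) over the parts of Top2b, Prkdc, Cdk9 and Chd4, in the order of the transcript, for the Clp1 knockdown (circle, full line) and Ctr (square, dashed line) library. Top2b was higher in every part of the knockdown library, the last exon of Prkdc was lower at 41.1 against 126, and the distal 3'UTR of Cdk9 lay at 8.97 against 60.4.

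Top1, which cuts and reseals a single strand to relax supercoils ahead of the polymerase, had 2295 reads in the knockdown and 1146 in the Ctr library. Its log2 ratio was 0.62 (0.52 to 0.73), or 1.54-fold, between the quartiles of all genes with at least 50 reads. Among the 8454 genes with at least 1000 reads, whose quartiles ran from -0.46 to 0.52, Top1 lay above the upper quartile. Every part of Top1 (chr2:160471624-160548500, plus strand) was higher in the knockdown library, the 5'UTR with 521 and 197 reads (1.02, 0.79 to 1.27), the earlier exons with 1129 and 673 (0.37, 0.23 to 0.51) and the last exon with 490 and 216 (0.80, 0.57 to 1.04). Scaled to the thymic epithelial genes, the Top1 ratio was 0.04.

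Chd4 was the member with the lowest ratio. It encodes an ATP-dependent remodeler, the motor of the NuRD complex, which also carries histone deacetylases. Chd4 (chr6:125045999-125080609, plus strand) had 1234 reads in the knockdown and 1802 in the Ctr library, so that the knockdown level was 52.7% of the Ctr level. The log2 ratio was -0.92 (-1.03 to -0.82), just short of 2-fold, and 80.0% of all genes had a higher one. It was negative in each of the 7 alternatives, of which the longest transcript repeats the reported value and total-read and TMM scaling could hardly move it. Scaled to the thymic epithelial genes, the Chd4 ratio was past 2-fold (-1.51). The 5'UTR (-0.90, -1.40 to -0.41), the earlier exons (-0.96, -1.09 to -0.83) and the distal 3'UTR (-1.09, -1.41 to -0.77) were lower by similar amounts, and the upstream last exon by less (-0.40, -0.73 to -0.06).

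Cdk9, Hipk2 and Jmjd6 had ratios between -0.29 and 0.22. Cdk9, the kinase of P-TEFb that phosphorylates the polymerase and the factors that hold it, had 2073 reads in the knockdown and 1548 in the Ctr library (0.04, -0.05 to 0.14), and the ratio was -0.54 when scaled to the thymic epithelial genes. It was the only member whose interval included 0. Hipk2 (chr6:38644389-38826189, minus strand), a kinase of the homeodomain-interacting family that phosphorylates Aire, had 1208 and 797 reads (0.22, 0.09 to 0.35), with -0.36 under that same scaling. Jmjd6 (chr11:116698746-116704763, minus strand) is an oxygenase of the JmjC family that hydroxylates lysines of splicing factors and has been tied to the splicing of Aire. It had 1079 reads in the knockdown and 1012 in the Ctr library (-0.29, -0.41 to -0.16), and the ratio was 0.12 without the GC trend and -0.87 when scaled to the thymic epithelial genes. In Jmjd6 the earlier exons had a ratio of -0.37 (-0.51 to -0.22) and the last exon one of 0.24 (-0.06 to 0.55). The difference between these parts was 0.61, and 83.0% of genes had a lower one.

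**Figure D3:**
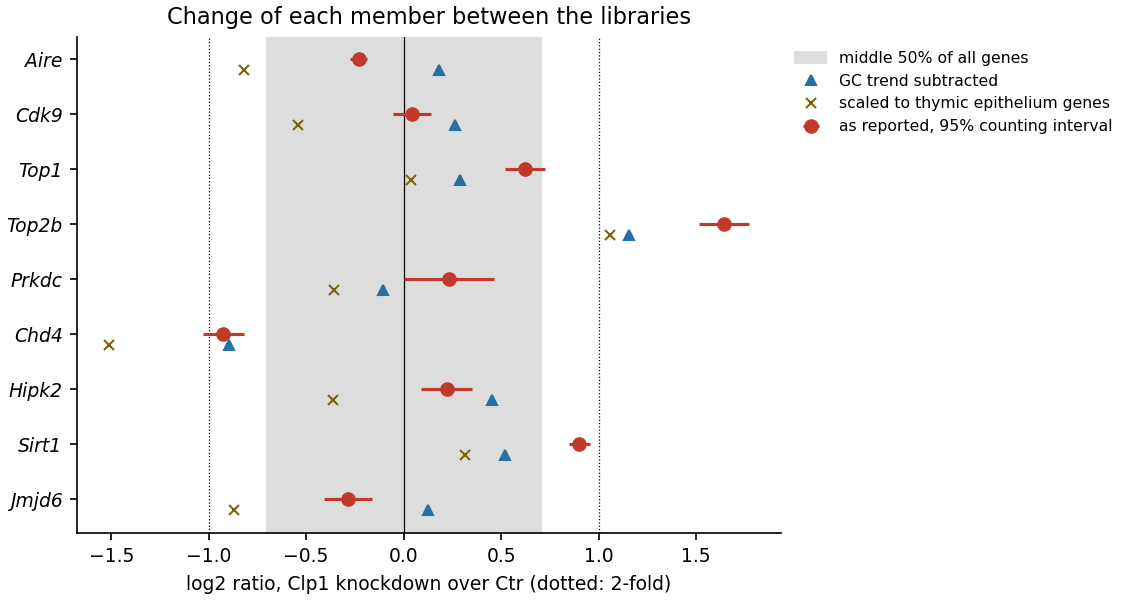
Log2 ratio of knockdown over Ctr for each gene, 1 library per group. Red circles carry 95% counting intervals, blue triangles have the GC trend subtracted, crosses are scaled to the thymic epithelial genes, the grey band runs between the quartiles of all genes (-0.70 to 0.71) and dotted lines mark 2-fold. Top2b lies beyond 2-fold at 1.64 and Chd4 lowest at -0.92, while Aire and Jmjd6 change sign without the GC trend, Prkdc under both alternatives, and Cdk9 and Hipk2 under the scaling to thymic epithelial genes.

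Over the set, 6 genes had a log2 ratio above 0 and 3 below, around a median of 0.22. The median of all genes was 0.00, and 50.2% of all genes were above 0. At a lower fold of 1.5, 3 members were higher in the knockdown library (Top2b, Sirt1 and Top1), where 28.4% of all genes were, and 1 was lower (Chd4), where 28.1% were. Set against the level of Aire per kb, the partners stood in other proportions in the 2 libraries. For every 100 of Aire there were 57.6 of Sirt1 in the knockdown library and 26.3 in Ctr. For Top2b these values were 10.5 (knockdown) and 2.87 (Ctr), and for Chd4 they were 4.48 and 7.25. Those of Jmjd6 were close, at 15.1 in the knockdown library and 15.7 in Ctr.

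GC content moved with these ratios. Over 13582 genes the median log2 ratio ran from 0.51 in the bin of lowest GC content to -0.54 in the bin of the highest. The members with the least GC, Top2b (41.8%), Top1 (42.1%), Prkdc (43.4%) and Sirt1 (44.0%), all had ratios above 0. Those with the most, Aire (58.2%) and Jmjd6 (57.1%), had ratios below 0, as did genes of like GC content, whose median was -0.41. The members between did not follow the trend. Cdk9 (55.7%) and Hipk2 (53.5%) had ratios of 0.04 and 0.22, where genes of like GC content had medians of -0.22 and -0.23. Chd4 (52.9%) had -0.92, where that median was -0.03. After subtraction of the median of genes of like GC content Top2b stood at 1.15, Sirt1 at 0.52, Hipk2 at 0.45, Top1 at 0.29, Cdk9 at 0.26, Aire at 0.18, Jmjd6 at 0.12, Prkdc at -0.11 and Chd4 at -0.90. Top2b and Chd4 thus kept the highest and the lowest place. The part of GC content in each single ratio was not tested beyond this subtraction.

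**Figure D4:**
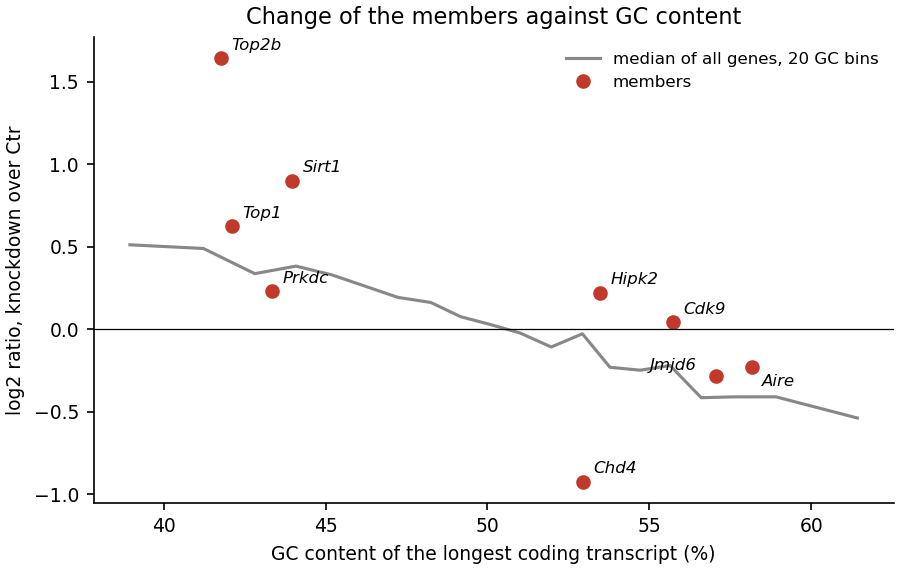
Log2 ratio of knockdown over Ctr of the 9 members (red) against the GC content of the longest annotated coding transcript, with the median over all genes in 20 bins of GC content (grey line). Top2b (1.64) and Chd4 (-0.92) lie farthest from the line, while Aire and Jmjd6 lie above it although their ratios are below 0.

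The study's own question was the use of poly(A) sites, read as the d3'UTR ratio: the read density beyond the most proximal annotated poly(A) site divided by the density of the last exon upstream of it. A site in Cdk9, Chd4, Hipk2 and Sirt1 gives 4 of the 9 genes such a distal 3'UTR, whereas Aire, Top1, Top2b, Prkdc and Jmjd6 have none in the table. The last 30 bases up to the proximal site of each, placed on mm9 by the length of the upstream part from the start of the last exon, are shown because the d3'UTR ratio turns on this position. Capitals mark a poly(A) signal, searched as AATAAA or ATTAAA on the strand of the gene.
Cdk9 (chr2:32562964-32562993, minus strand): ggttaaATTAAAagttggttatttttttcc
Chd4 (chr6:125080323-125080352, plus strand): gccaggctcgaagaaaatgatctgaatttc
Hipk2 (chr6:38647877-38647906, minus strand): aaaagaaaaaggaaaaaaagaaaaagaaaa
Sirt1 (chr10:62781810-62781839, minus strand): cttttgaaatacaaaaacagtgttttatac
Only the Cdk9 window held a signal, an ATTAAA that ends 18 bases before the site. Among the 4855 genes whose proximal site could be placed in this way, 35.7% held AATAAA and 14.5% ATTAAA in the same window, and 48.8% at least one of them. The window of Hipk2 held 25 A in 30 bases. The annotated last exon of Chd4 differed by 84 bp from the sum of its parts, so its site is placed less surely than those of Cdk9 (2 bp), Sirt1 (0 bp) and Hipk2 (19 bp).

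The distal 3'UTR of Cdk9 was read less in the knockdown library. This distal part of 1662 bp (chr2:32561302-32562963), in the 3'UTR of the last exon, had 17 reads in the knockdown and 88 in the Ctr library, whereas the upstream part of 846 bp had 1200 and 893. The d3'UTR ratio was 0.00721 in the knockdown library and 0.0502 in Ctr. Both were far under the median over 3990 genes with at least 50 distal reads, 0.628 in the knockdown library and 0.642 in Ctr. The change was -2.80 on the log2 scale (-3.65 to -2.02), a ratio 6.96-fold lower in the knockdown library, and 4.24% of those genes had a lower value. A change of 2-fold or more downwards was found in 14.7% of these genes, and upwards in 13.3%. No exon of another annotated gene overlaps the distal part of Cdk9. Elsewhere in Cdk9, annotated miRNAs on the same strand overlap 73 and 82 of its 4611 exonic bases.

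In Chd4 the distal 3'UTR of 167 bp was denser than the upstream part. It had 134 reads in the knockdown and 219 in the Ctr library, with 149 and 151 reads upstream. The d3'UTR ratio was 2.77 in the knockdown library and 4.47 in Ctr, a log2 change of -0.69 (-1.16 to -0.22). Against the earlier exons in place of the upstream part the change of Chd4 was -0.13. For the other distal parts the design of the count left little to see. A counted read of 50 bases must lie wholly inside a part. The 38 bp of Hipk2 offer 0 positions for such a read and held 0 reads in both libraries, and the 57 bp of Sirt1 offer 8 positions and held 2 reads in the knockdown and 0 in the Ctr library. Upstream of these sites Sirt1 had 4970 and 1864 reads, so 3 distal reads would correspond to a d3'UTR ratio of 0.0202 in the knockdown and 0.0537 in the Ctr library. These ratios divide by the full 57 bp. Over the 8 positions that can hold a read they would be higher, so they overstate how low a ratio could be seen. For Hipk2, with 193 and 166 upstream reads, no change was measurable.

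Companion genes of each member were then compared, as 7 lists of 82 symbols of which 76 genes had at least 50 reads. Of these, 7 genes (9.21%) passed 2-fold upwards in the knockdown library and 9 (11.8%) passed it downwards, around a median of -0.01. These shares were below those of all genes with at least 50 reads (19.0% and 18.6%). Most companion genes had far more than 50 reads, and genes at large were not matched to them for read depth. The part of read depth in this gap was not tested. Polr2a is not analysed here.

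The list of P-TEFb and pause release had a median of -0.30 over 20 genes. In it 10% of the genes were at least 2-fold higher and 5% lower, where 19.0% and 18.6% of all genes were. Ccnt2, which encodes cyclin T2, an alternative partner of Cdk9, had 1473 reads in the knockdown and 446 in the Ctr library (1.35, 1.19 to 1.5). Ell2, an elongation factor of the super elongation complex, had 1585 and 556 (1.13, 0.99 to 1.28), and Ccnk, the cyclin of Cdk12 and Cdk13, 164 and 277 (-1.13, -1.42 to -0.85). Cyclin T1 itself was close to equal in both libraries, like Cdk9, with 1184 reads of Ccnt1 in the knockdown and 899 in the Ctr library (0.02), a value looked up after the data were seen. Among the companion genes with ratios nearest to that of Aire were the acetyltransferase gene Ep300, with 771 reads in the knockdown and 703 in the Ctr library (-0.25, -0.39 to -0.10), and the NuRD subunit gene Mbd3, with 2940 and 2703 (-0.26, -0.33 to -0.18).

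Among genes of DNA breaks and the FACT histone chaperone the median was 0.26 over 14 genes, with 2 at least 2-fold higher and 3 lower. The 2 higher genes were 14.3% of the list, where 19.0% of all genes were. The median of this list was -0.01 without the GC trend and -0.32 when scaled to the thymic epithelial genes. Xrcc5, the Ku80 subunit that recruits Prkdc to broken ends, had 1209 reads in the knockdown and 307 in the Ctr library (1.60, 1.42 to 1.78). Msh6, a mismatch repair protein, had 2224 and 831 (1.04, 0.93 to 1.16). Xrcc6, the Ku70 subunit that pairs with Xrcc5, looked up after the data were seen, had 1317 and 1044 reads (-0.04). The genes past 2-fold downwards, 21.4% of the list where 18.6% of all genes were, were the end-joining ligase Lig4 with 244 and 515 reads (-1.46, -1.68 to -1.23), the nuclease Dclre1c, or Artemis, with 417 and 800 (-1.32, -1.49 to -1.15), and the end-joining factor Nhej1 with 127 and 238 (-1.28, -1.61 to -0.97). Xrcc4, the partner of Lig4, looked up after the data were seen, had 820 and 502 reads (0.33, 0.17 to 0.49).

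The other topoisomerases had a median of 0.76 over 4 genes. At least 2-fold higher were 2 of the 4, where 19.0% of all genes were, too few genes to set them apart from genes at large. The mitochondrial Top1mt had 394 reads in the knockdown and 58 in the Ctr library (2.39, 1.98 to 2.81) and Top3a, which also acts on recombination intermediates, 407 and 133 (1.24, 0.95 to 1.53). Top2a, the type II enzyme of dividing cells and paralogue of Top2b, had 1594 reads in the knockdown and 1233 in the Ctr library (-0.01, -0.12 to 0.10), and this gene was looked up after the data were seen.

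The companions of Chd4 in NuRD did not share its lower level as a group, with a median of 0.14 over 12 genes, which was -0.45 when scaled to the thymic epithelial genes. Gatad2b, a zinc finger subunit that links the parts of the complex, had 119 reads in the knockdown and 301 in the Ctr library (-1.72, -2.04 to -1.41), and Mbd2, which binds methylated DNA, 1079 and 1735 (-1.06, -1.17 to -0.95). Only these 2 were at least 2-fold lower, 16.7% of the list, where 18.6% of all genes were. The relatives of Hipk2 and Sirt1 had a median of -0.31 over 8 genes, and among them only Sirt6, a nuclear deacetylase of telomeric chromatin, passed 2-fold, with 299 and 91 reads (1.34, 0.99 to 1.69). That was 12.5% of the list at least 2-fold higher, where 19.0% of all genes were.

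The list of other Aire-associated proteins had a median of 0.23 over 14 genes (-0.36 when scaled to the thymic epithelial genes). The RNA helicase gene Ddx17 was the only one past 2-fold, with 1648 reads in the knockdown and 2906 in the Ctr library (-1.20, -1.28 to -1.11). That was 7.14% of the list at least 2-fold lower, where 18.6% of all genes were. The short list of antigens known to depend on Aire had only 4 genes with enough reads, all with ratios below 0, around a median of -0.91, where 50.2% of all genes were above 0. At least 2-fold lower were 2 of the 4, against 18.6% of all genes, too few genes to set them apart from genes at large. These were Ins2, one of the mouse insulin genes, with 82 reads in the knockdown and 364 in the Ctr library (-2.53, -2.89 to -2.18), and Cyp1a2, a liver cytochrome, with 333 and 605 (-1.24, -1.44 to -1.04). The other antigens with enough reads were Csn2, which encodes a casein of milk, with 14900 and 17070 reads (-0.57), and Ambp, which encodes a plasma protein of the liver, with 136 and 130 (-0.31, -0.67 to 0.04).

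**Figure D5:**
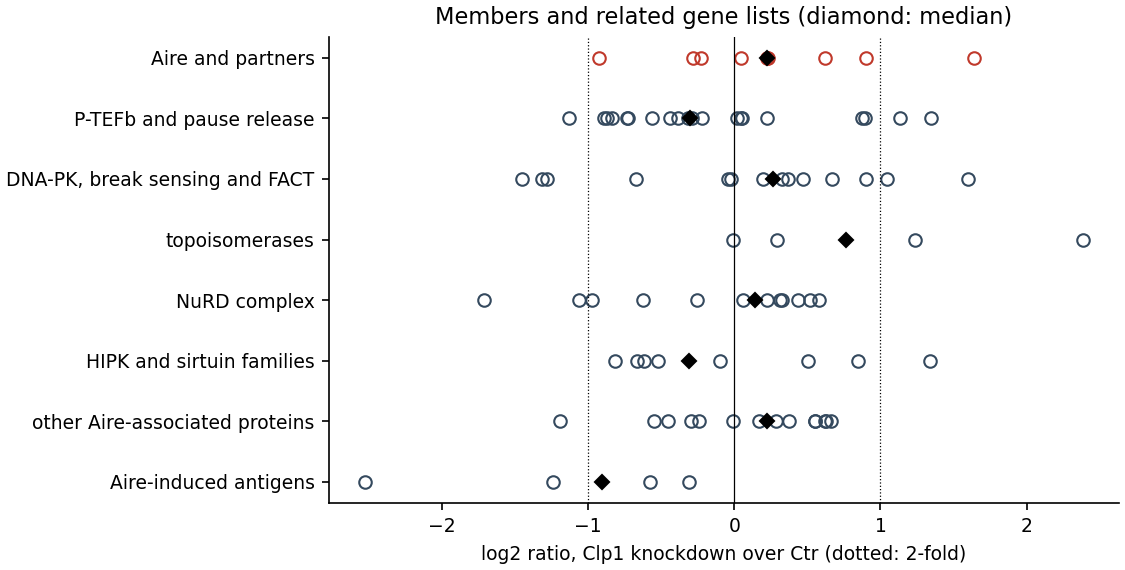
Log2 ratio of knockdown over Ctr of Aire and its partners (red circles) and of genes with at least 50 reads in 7 related lists (dark circles), with list medians as diamonds and 2-fold as dotted lines. The members spread from -0.92 to 1.64 around 0.22; when scaled to the thymic epithelial genes, the medians of the DNA break, NuRD and Aire-associated lists fall below 0, and that of the DNA break list also without the GC trend.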

How the data were processed

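Total RNA of both sorted populations was made into libraries with the Smarter Ultra Low Input and Nextera kits and sequenced as single-end reads of 50 bp. The submitters' processing notes name mm9, Bowtie 1.0.0 and bedtools. The deposited counts give reads contained in the exons of 30794 RefSeq transcripts, and of the parts of 27567 transcripts with each part's length in bp. Strand use and duplicate removal are not given in the sources used here for these libraries, so reads of overlapping antisense genes, and of near-identical copies, cannot be told apart. The authors' table of differential expression (normalized levels, fold changes and p-values) was not used.

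Symbols came from a GRCm38.p6 RefSeq table, which matched 30216 transcripts. The most-read transcript stood for each gene. For Aire this was a non-coding entry, so NM_009646 gave its length and parts. Size factors (median of ratios, over all transcripts) scaled the counts. Intervals of log2 ratios are exact (Clopper-Pearson) 95% intervals of the knockdown share of reads, and those of differences between parts are exact conditional odds-ratio intervals. A gene was past 2-fold with at least 50 reads over both libraries. A d3'UTR ratio was computed from 10 last-exon reads per library upwards, and the comparison over all genes 50 distal reads. Positions, overlaps and GC content came from NCBIM37 (mm9) with GENCODE vM1, matched by symbol, with last exons accepted within 100 bp. GC trends are medians in 20 bins.

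The members and lists were chosen with earlier results of these data known. In companion lists, up to 3 genes past 2-fold in each direction were named, with the 3 genes nearest to Aire in ratio, of which 1 is not reported here. Of the marker lists, those of mature mTEC (10 genes) had a median log2 ratio of 0.27. The calculation was tested on simulated data. Alternatives were total-read and edgeR 4.0.16 TMM scaling, scaling to 10 thymic epithelial genes, the longest transcript, GC subtraction, other minima and folds, and other parts. Python 3.11.15, SciPy 1.17.1 and R 4.3.3 were used.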

Additional observations from a re-analysis of the deposited data

How the results depend on the processing

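Each member was recomputed under 7 alternatives, some of which could change little. Total-read and TMM scaling shifted every log2 ratio by only -0.02 and 0.002. The longest transcript was the reported one for every member but Aire, and the sum of the parts counts nearly the same reads. Total-read scaling, TMM factors, the longest transcript, the sum of the parts and the earlier exons alone turned no member's direction, and Top1, Top2b, Sirt1 and Chd4 kept their direction in all 7. Scaling to the thymic epithelial genes shifted every log2 ratio by -0.59, since the median of those genes was 0.59. The size of this shift depends on the genes listed, whose single ratios ran from -0.06 to 1.34. It gave Aire -0.82 and turned Cdk9 (-0.54), Prkdc (-0.36) and Hipk2 (-0.36), the list medians of DNA-PK, break sensing and FACT (-0.32), NuRD (-0.45) and other Aire-associated proteins (-0.36), and left 1 member at least 2-fold lower in place of 0. Subtraction of the GC trend turned Aire (0.18), Jmjd6 (0.12), Prkdc (-0.11) and the median of the DNA break list (-0.015). The cause of these turns was not tested. A fold of 1.5 counted 3 members higher and 1 lower. A minimum of 500 reads left 1414 genes at least 2-fold higher and 1355 lower, of 3132 and 3064. Fewer genes were counted at that minimum, and a smaller share of them passed 2-fold. Of the 16455 genes, 8454 had at least 1000 reads and so were still counted. No paired analysis was possible because each group had 1 library, and no library could be left out. Counting error was smallest for Sirt1 and Aire and largest for Prkdc, whose last exon rests on 22 and 52 reads.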
